A study of Mus musculus with 96 samples.

Results

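Creatine kinases and adenylate kinases buffer the ATP supply of neurons, and 9 genes of this system were followed through single neurons of the lateral superior olive (LSO), a sound localization nucleus of the auditory brainstem. The genes were Ckb and Ckmt1 (creatine kinases), Slc6a8 (creatine transporter), Gatm and Gamt (creatine synthesis) and Ak1, Ak3, Ak4 and Ak5 (adenylate kinases), 9 of the 38887 genes in the expression table. They were chosen by their place in the pathway after the high values of Ckb and Ckmt1 in these libraries were known. Their levels and class differences are therefore given as descriptions, without a test.

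The cytoplasm, and often the nucleus, of single neurons was drawn into the patch pipette after electrophysiological recording in brainstem slices of C57BL/6J mice of both sexes at postnatal day 11 ± 1, and each neuron gave 1 library. The firing pattern in the labels set the class. Principal neurons (pLSOs), which project upwards, comprised 41 Onset and 11 Sustained neurons, and lateral olivocochlear neurons (LOCs), which project down to the cochlea, comprised 28. A further 8 libraries were negative controls from pipettes that only touched the slice. The labels give no genetic change and no treatment for any group. Another 8 libraries (6 neurons and 2 negative controls) at odds with their labels or published values were left out, and with all 86 neurons the pLSO to LOC ratios of Ckb and Ckmt1 given further on were 2.43 and 2.99. No label names the animal of a neuron, so each class counted as 1 sample and the spread given is that over neurons, which may share animals.

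Creatine kinases move a phosphate group between ATP and creatine. The phosphocreatine made near mitochondria carries it to sites of ATP use, where the cytosolic enzyme hands it back to ADP. Adenylate kinases join a pair of ADP molecules into ATP and AMP, so that the last usable phosphate is recovered and AMP signals energy stress. Auditory brainstem neurons fire at high rates, and their ion pumps use much ATP.

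The upstream 250 bases of the genes that led the set, Ckb and Ckmt1, are shown because these creatine kinases were the most widely detected members. RefSeq promoters on GRCm38.p6 were found for 7 of the 9 genes. The Ckb sequence is chr12:111672339-111672588 on the minus strand. The Ckmt1 sequence, of the first of 2 start sites, is chr2:121357526-121357775 on the plus strand. Both run 5′ to 3′ towards the start site, and capitals mark the letters TATAAA and CCAAT on either strand, which do not overlap each other here.
Ckb: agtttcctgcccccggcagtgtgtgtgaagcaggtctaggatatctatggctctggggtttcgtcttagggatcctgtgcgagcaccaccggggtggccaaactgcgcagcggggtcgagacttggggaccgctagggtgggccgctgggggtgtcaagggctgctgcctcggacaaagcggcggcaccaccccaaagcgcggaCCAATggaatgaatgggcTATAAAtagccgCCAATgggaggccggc
Ckmt1: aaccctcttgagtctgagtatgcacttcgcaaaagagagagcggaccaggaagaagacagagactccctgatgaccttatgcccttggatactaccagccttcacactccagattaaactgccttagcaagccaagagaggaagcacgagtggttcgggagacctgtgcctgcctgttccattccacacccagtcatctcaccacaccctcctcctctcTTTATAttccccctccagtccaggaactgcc
The Ckb sequence held TATAAA with its first base 28 bases before the start site and CCAAT at 46 and at 16 bases. The Ckmt1 sequence held TATAAA on the opposite strand (TTTATA) at 31 bases and no CCAAT. Of 32851 mouse promoters of the same length, 12.4% held TATAAA and 33.8% held CCAAT on either strand. GGGCGG, held by 32.7% of them, was in neither printed sequence and occurred 3 times upstream of Gamt, 2 times upstream of Ak3 and 2 times upstream of the fourth start site of Ak4. These are matches of letters only.

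The libraries of the 80 neurons used held an estimated 188611.5 to 3234058 reads and 1175 to 6276 genes at 1 TPM or more, the deposited unit of transcript abundance scaled to library size and length. The 8 negative controls used held 3456.5 to 146015.6 reads and 285 to 1271 genes. As a description of the classes, the summed TPM of 5 pLSO markers had a median of 620 in Onset and 223 in Sustained neurons but 1 in LOCs, and that of 5 LOC markers a median of 1031 in LOCs and 0 in both pLSO types. These class markers are those of the study of these same neurons, and libraries at odds with their labels had been left out, so the values are no check of the labels. Snap25 and 4 other neuron markers were above 0 in sum in all 80 neurons, with medians of 824 TPM in Onset neurons, 469 TPM in Sustained neurons and 561.5 TPM in LOCs. The same sum was above 0 in 7 of 8 negative controls, with a median of 266.5 TPM and a highest value of 5033 TPM. The pLSO and LOC marker sums were above 0 in 4 and 6 of the 8 negative controls. Presence of these markers alone thus did not set neurons apart from the controls. Oligodendrocyte markers were also present, with a median sum of 271 TPM in Onset neurons, 594 TPM in Sustained neurons, 1115 TPM in LOCs and 6831 TPM in the negative controls. All 6 of them were above 0 in each group. Astrocyte markers had medians of 35, 38, 42 and 97.5 TPM in the same order, and Aldh1l1 and Gja1 were at 0 in the LOCs. Microglial sums reached 1745 TPM and endothelial sums 533 TPM in single neurons, with medians of at most 12 TPM.

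How far values of different genes could be compared depended on the scale of the table. In each library a value was a whole number of reads times a constant, divided by a length that rose with the row of the table and was not that of the gene itself. In the median neuron 1 read was worth 51.9 TPM for Ckmt1 (row 57) and 25.9 TPM for Ckb (row 225). It was worth 2.88 TPM for Slc6a8 and 2.36 TPM for Gamt, 1.04 TPM for Ak3, 0.476 TPM for Ak1, 0.396 TPM for Gatm and 0.251 TPM for Ak4. For Ak5 (row 11413) it was worth only 0.0932 TPM, so that about 5.37 reads were needed for a listed value of 1 TPM. TPM as deposited of single genes are thus compared here only within a gene, and reads are estimates from this scale. Detection at 1 TPM as deposited follows the same scale, so that shares of neurons rest on different numbers of reads for different genes. The marker sums do add TPM of different genes, so that a read counts for more in genes of early rows. Among the glial markers, Cnp (row 1065) and Slc1a2 (row 805) averaged 1673 and 541 TPM over neurons, and Mbp (row 12329) 307 TPM. With reads divided by true exon length and scaled to a common total, these means were 201, 11.5 and 1727.

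**Figure D1:**
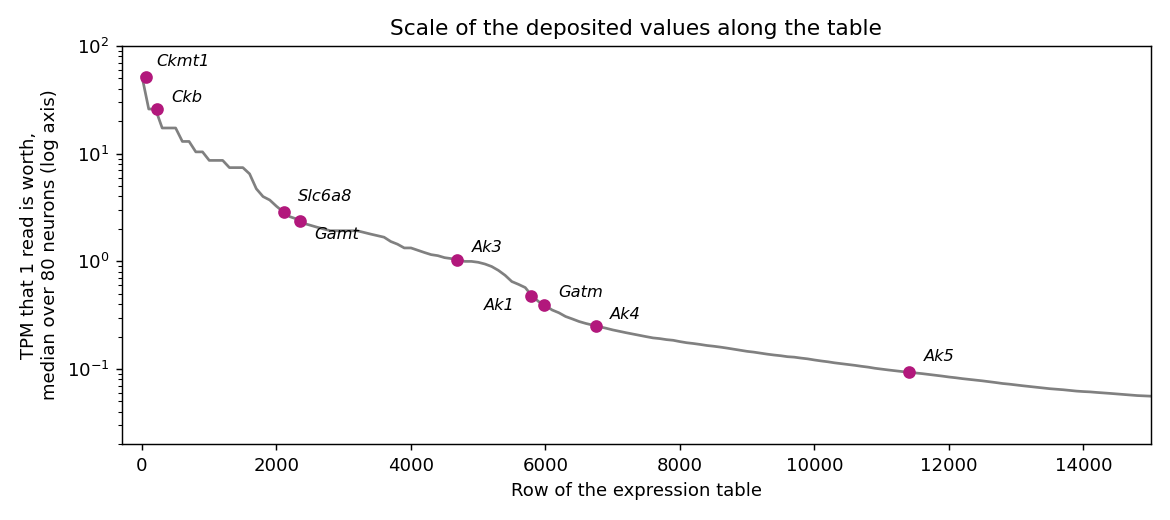
TPM that 1 read is worth (median over 80 neurons, log axis) against the row of the expression table, with the 9 genes as points on the line for all rows. Ckmt1 and Ckb sit at the steep left end at 51.9 and 25.9 TPM, and Ak5 sits at 0.0932 TPM.

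Ckb, the cytosolic brain-type creatine kinase (ENSMUSG00000001270, chromosome 12 of GRCm38 from 111669361 to 111672338, minus strand), was detected in all 80 neurons. In Onset neurons the lowest value was 4440 TPM, the median 42997 TPM and the highest 120738 TPM. In Sustained neurons these values were 6028, 31431 and 59603 TPM, and in LOCs 947, 20828.5 and 38811 TPM. Of the 28 LOCs, none lay above the pLSO median of 39122 TPM, 7 lay above the lower quartile of the pLSOs and 4 lay below the lowest pLSO, while 27 of 52 pLSOs lay above the highest LOC. The classes overlapped, and the pLSO value was the higher in 81.9% of all pairs of a pLSO and a LOC. The mean was 41351 ± 22922 TPM in pLSOs (SD, n = 52) and 18720.5 ± 11424 TPM in LOCs (SD, n = 28), a ratio of 2.21. The ratio of medians was 1.88, below the 2-fold limit used here, and the means rescaled to gene length gave 2.46. The difference of mean log2(TPM + 1) was 1.33. In estimated reads, pLSOs held a median of 1506 and LOCs a median of 613 reads of Ckb.

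**Figure D2:**
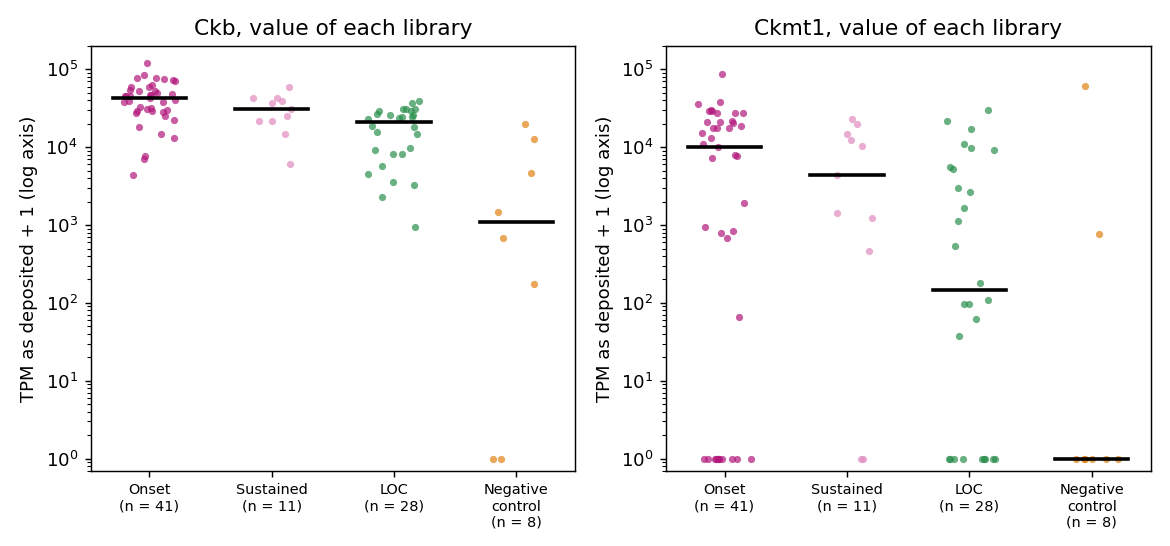
Values of Ckb (left) and Ckmt1 (right) in each library as TPM + 1 on a log axis, with 1 point a library and a bar at the median, for 41 Onset, 11 Sustained and 28 LOC neurons and 8 negative controls. Ckb forms 1 band in each class with medians of 42997, 31431 and 20828.5 TPM, whereas 22 neurons lie at 0 for Ckmt1 and 33 pLSOs and 12 LOCs lie at 1000 TPM or more.

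Ckb was also measurable in the negative controls, and the source of these reads was not tested. The 8 negative controls listed 19585, 12824, 4677, 1488, 680 and 175 TPM and 2 times 0, which came from at most 66.9 reads each. Thus 58 of 80 neurons, 44 of 52 pLSOs and 14 of 28 LOCs exceeded the highest negative control. The mean over neurons was 6.78 times that over the negative controls. Scaled to library depth only (RPM), the mean of Ckb was 2323 in pLSOs, 975 in LOCs and 217 in negative controls, the last falling to 130 without its highest library. Oligodendrocytes and astrocytes also express Ckb. Over neurons, log2(TPM + 1) of Ckb and of the oligodendrocyte sum had a Pearson correlation of 0.13 in pLSOs (n = 52) and 0.08 in LOCs (n = 28). Among the 40 neurons below the median of the summed glial markers (1154 TPM), the ratio of Ckb between 30 pLSOs and 10 LOCs was 2.28. That sum is in deposited TPM, in which Cnp and Slc1a2 had the highest means, as given above.

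Ckmt1, the creatine kinase of the mitochondrial intermembrane space (ENSMUSG00000000308, chromosome 2 of GRCm38 from 121357714 to 121363737, plus strand), was detected in 39 of 52 pLSOs (75.0%, exact 95% interval 61.1 to 86.0%) and 19 of 28 LOCs (67.9%, 47.6 to 84.1%). Onset neurons ranged from 0 to 87116 TPM with a median of 10002 TPM, and Sustained neurons from 0 to 22780 TPM with a median of 4436 TPM. LOCs ranged from 0 to 30098 TPM with a median of only 144 TPM, which was the worth of about 1.50 reads. The gene was therefore near or at 0 in many LOCs and abundant in others, and 12 of 28 LOCs against 33 of 52 pLSOs held 1000 TPM or more. The mean was 12536 ± 15496 TPM in pLSOs (SD, n = 52) and 4255 ± 7553 TPM in LOCs (SD, n = 28), a ratio of 2.95. The pLSO value was the higher in 66.4% of pairs, with ties divided equally. In LOCs, Ckmt1 moved with the number of genes detected in the neuron (Pearson r = 0.67 over 28 neurons), which in pLSOs it did less (r = 0.29 over 52). For Ckb the same values were 0.31 and 0.11. Within neurons of 1500 to 4500 detected genes the ratio was again 2.95, but this range left out few neurons (49 pLSOs and 27 LOCs remained). With at least 500000 estimated reads (42 pLSOs and 24 LOCs) the ratio was 2.19. It was 2.45 in neurons below the median of glial markers (30 pLSOs and 10 LOCs) and 3.36 without the highest neuron of each class.

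The negative controls gave 2 values of Ckmt1 above 0, namely 766 TPM and 60847 TPM. The second, in a library of 6002 estimated reads, came from 7.95 estimated reads, and the mean of the controls fell from 7702 to 109 TPM without it. Only 1 neuron lay above that library. Of the 2 negative controls left out, 1 held none of the creatine kinases and 1 held 8334 TPM of Ckmt1 from 64.0 estimated reads, 14193 TPM of Ckb from 218 reads and 77 TPM of Gamt. The 22 neurons without Ckmt1 were neurons without a single counted read, since 1 read would have shown as at least 8.80 TPM.

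Levels of members were set side by side only once their reads had been divided by their true exon length and each library scaled to a common total (length-scaled level). On this scale Ckb had a mean of 1885 ± 1439 (SD, n = 80) and stood in place 37 of 15362 genes with a value, although it was first in TPM as deposited. Ckmt1 followed with 330 ± 505 (SD, n = 80), in place 373. Ckb exceeded Ckmt1 in 75 of 80 neurons, and their means differed 5.71-fold over all neurons, 5.45-fold in pLSOs and 7.28-fold in LOCs. The remaining means were 79.6 for Ak1, 48.1 for Gatm, 35.9 for Gamt, 31.0 for Ak5, 19.9 for Ak3, 6.24 for Slc6a8 and 1.72 for Ak4. Their SDs over neurons lay between 8.03 and 230 and each was larger than the mean, so that neighbours in this order below Ckmt1 did not differ beyond their spread. In LOCs alone the means of Ak1 (134, SD 347) and Ckmt1 (133, SD 266) stood level behind Ckb. Single neurons weighed much in both, with highest values of 1741 and 1183. The medians were 0 and 3.43, and 12 LOCs held Ak1 against 19 that held Ckmt1.

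**Figure D3:**
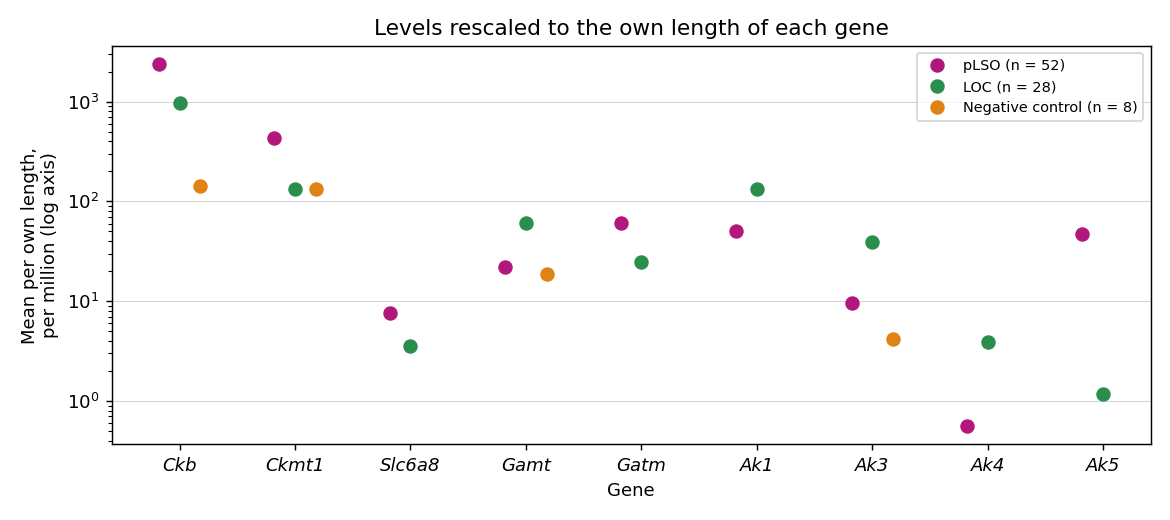
Mean length-scaled level of each gene on a log axis in 52 pLSOs, 28 LOCs and 8 negative controls (a missing point is a mean of 0). Ckb leads in both neuron classes with 2379 and 967. The points of Ak5 lie furthest apart, at 47.0 in pLSOs (SD 123) and 1.18 in LOCs, but the LOC mean comes from 1 of 28 neurons.

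Slc6a8, which imports creatine across the plasma membrane (chromosome X from 73673150 to 73682502, plus strand), was found in few neurons. It was detected in 9 Onset neurons with 2 to 753 TPM, in 2 Sustained neurons with 72 and 88 TPM, and in 2 LOCs with 11 and 770 TPM. These were 11 of 52 pLSOs (21.2%, 11.1 to 34.7%) and 2 of 28 LOCs (7.1%, 0.88 to 23.5%), and the intervals overlapped. The mean stood at 27.04 TPM for pLSOs and 27.9 TPM for LOCs, set by single neurons, and at 12.8 and 0.407 TPM without the highest of each class. All 8 negative controls were at 0, which allows a share of up to 37.5%.

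Creatine synthesis begins with Gatm, which makes guanidinoacetate, and ends with Gamt, which methylates it. Gatm (chromosome 2 from 122594467 to 122611303, minus strand) was detected in 10 of 52 pLSOs (19.2%, 9.63 to 32.5%) and 7 of 28 LOCs (25.0%, 10.7 to 44.9%). Its values reached 285 TPM in Onset, 192 TPM in Sustained and 83 TPM in LOC neurons, and the mean was 16.9 TPM in pLSOs against 7.07 TPM in LOCs, a ratio of 2.40. A pLSO held the higher value in 48.2% of pairs, with the many ties at 0 divided equally. At the limit of 1 TPM the difference lay in the height of the values and not in the share of neurons. The neurons with the gene had a median of 61.5 TPM among pLSOs but 3 TPM among LOCs. The LOC values of 1 to 3 TPM stood for only 1.45 to 7.05 estimated reads. At a limit of 10 TPM the gene was in 15.4% of pLSOs and 10.7% of LOCs, so the order of the shares depended on the limit.

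Gamt (chromosome 10 from 80258151 to 80261012, minus strand) was detected in 7 of 52 pLSOs (13.5%, 5.59 to 25.8%) and 4 of 28 LOCs (14.3%, 4.03 to 32.7%). The LOC values were 8, 66, 272 and 1205 TPM, and the last made up 77.7% of the class sum. Its mean of 55.4 TPM in LOCs exceeded the 17.6 TPM in pLSOs by 3.15-fold, but without the highest neuron of each class the means were 12.8 and 12.3 TPM. One of 8 negative controls held 238 TPM. Only 1 of the 11 neurons with Gamt lay below the median of the summed oligodendrocyte and astrocyte markers, against 7 of the 17 with Gatm. That sum carries the same weighting towards Cnp and Slc1a2. Oligodendrocytes are known to express Gamt, and the part of glial RNA in these values was not tested. Both synthesis genes were found together in 4 neurons. All 11 neurons with Gamt also held Ckmt1, which 58 of all 80 neurons held, so no link of these genes is read from this.

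Among adenylate kinases, Ak1, the main cytosolic form of muscle and brain (chromosome 2 from 32621758 to 32635058, plus strand), was the most widely detected. It was found in 15 of 52 pLSOs (28.8%, 17.1 to 43.1%) and 12 of 28 LOCs (42.9%, 24.5 to 62.8%), and in none of 8 negative controls. Values reached 180 TPM in Onset, 60 TPM in Sustained and 413 TPM in LOC neurons. On average pLSOs held 13.8 TPM and LOCs 37.9 TPM, 2.73-fold more, and 2.26-fold more without the highest neuron of each class. The SDs of 35.2 and 88.0 TPM exceeded both means.

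Ak3, which serves the mitochondrial matrix and uses GTP (chromosome 19 from 29020833 to 29047961, minus strand), was found in 4 of 52 pLSOs (7.7%, 2.14 to 18.5%) and 7 of 28 LOCs (25.0%, 10.7 to 44.9%). The LOCs held 1, 10, 22, 137, 222, 240 and 306 TPM. Of the pLSOs, 3 Onset neurons held 1, 2 and 4 TPM and 1 Sustained neuron held 368 TPM, which made up 98.1% of the class sum. The mean was 4.65-fold higher in LOCs (33.5 against 7.21 TPM). It was 23.4 against 0.137 TPM without the highest neuron of each class. Of the negative controls 2 held 28 TPM each, so that the share of controls (25.0%) equalled that of LOCs. The gene overlaps Cdc37l1 on the other strand, and with reads that carry no strand the genes cannot be told apart there.

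The rarest members lay further down the table. Ak4, another matrix form (chromosome 4 from 101419277 to 101466995, plus strand), was listed in 1 Onset neuron with 5 TPM, 1 Sustained neuron with 3 TPM and 3 LOCs with 6, 10 and 34 TPM. Ak5, a form found mainly in brain (chromosome 3 from 152462815 to 152668360, minus strand), was listed in 9 of 52 pLSOs (17.3%, 8.23 to 30.3%) and 1 of 28 LOCs (3.6%, 0.09 to 18.3%). Its Onset values were 43, 37, 36, 19, 16, 13 and 3 TPM, its Sustained values 14 and 1 TPM, and its LOC value 3 TPM. Low as they look, the Onset values stood for 24.0 to 1041 estimated reads, and the LOC value for 17.3 reads. No ratio was formed for Slc6a8, Ak4 and Ak5, which 3 or fewer LOCs or pLSOs held. The negative controls were at 0 for all 3 of them. Ak5 overlaps Zzz3 and an antisense gene at its ends.

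**Figure D4:**
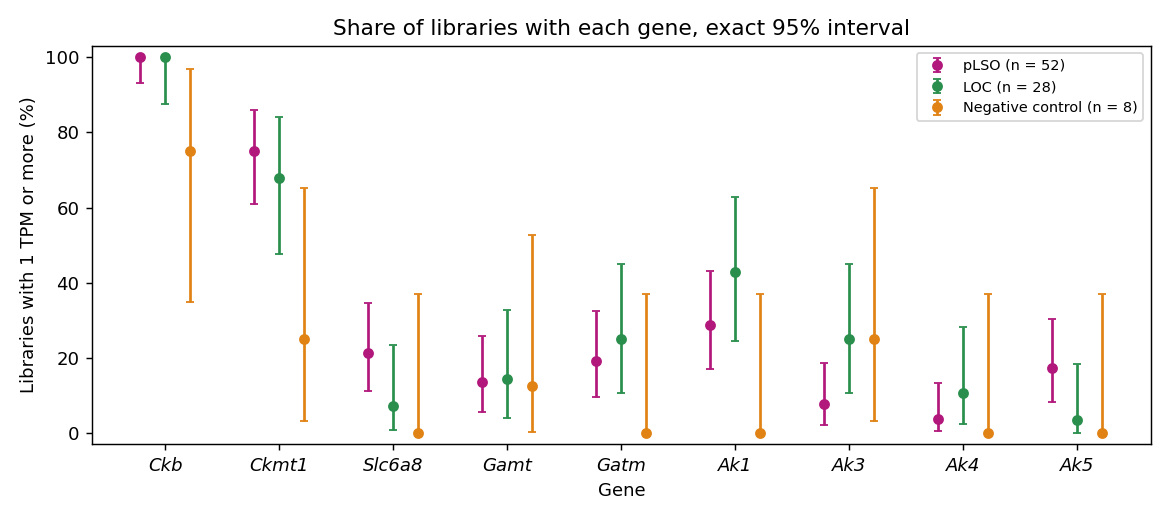
Share of libraries with 1 TPM or more of each gene in 52 pLSOs, 28 LOCs and 8 negative controls, with exact Clopper-Pearson 95% intervals as bars. Ckb is at 100% in both neuron classes and Ckmt1 at 75.0 and 67.9%, while the other 7 genes stay at or below 42.9% and their pLSO and LOC intervals overlap.

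A ratio between pLSOs and LOCs could be formed for 6 members. Of these, Ckb, Ckmt1 and Gatm were at least 2-fold higher in pLSOs, where 16.8% of all 5946 genes compared passed this limit. Gamt, Ak1 and Ak3 were at least 2-fold higher in LOCs, where 21.0% of these genes did. The median log2 ratio was -0.15 over the 6 members and -0.09 over all genes compared. Because the set was picked with levels known, nothing is read from these shares.

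Between the types of pLSO, Ckb was 1.41-fold higher in Onset than in Sustained neurons (44057 ± 24012 TPM, SD, n = 41, against 31261 ± 15209 TPM, SD, n = 11), and the ranges overlapped widely. The Ckmt1 means differed 1.73-fold (13765 against 7958 TPM), while the difference of mean log2(TPM + 1) was -0.41, in the other direction, since 73.2% of Onset and 81.8% of Sustained neurons held the gene. Neither of these 2 members reached 2-fold, a limit that 13.7% of all genes compared passed in Onset and 22.1% in Sustained neurons. The other 7 were held by 3 or fewer Sustained neurons. Between neurons and negative controls, 2 of the 4 members found in both, Ckb and Ak3, were at least 2-fold higher in neurons, as were 54.2% of all genes compared. For Ak3 the other measures ran the other way, with a difference of mean log2(TPM + 1) of -0.55 and the gene in 13.75% of neurons against 25.0% of controls. Ckmt1 was under 2-fold with the 1 control library at 60847 TPM, without which the control mean was 109 TPM.

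The neurons were also compared among themselves. Ckb and Ckmt1 were hardly related, with Pearson correlations of log2(TPM + 1) of 0.02 over 52 pLSOs and 0.13 over 28 LOCs. Neurons of a class share preparation and may share animals, and these values are descriptions. The 5 genes most like Ckb over all 80 neurons, among 1266 genes found in at least 50% of the neurons, were Pvalb (r = 0.52), Ldhb (0.52), Acot7 (0.48), Tpi1 (0.43) and Spp1 (0.43). Ckmt1 stood in place 336 of that order with 0.16. Pvalb, a calcium buffer, had 0.13 within pLSOs and 0.36 within LOCs. Spp1, which codes for osteopontin, had 0.02 within pLSOs and 0.02 within LOCs. The mean of each was higher in pLSOs (4607 against 522 TPM and 306 against 0.0357 TPM). Ldhb, a lactate dehydrogenase subunit, and Tpi1, a glycolytic enzyme, had 0.41 and 0.55 within pLSOs and 0.20 and 0.18 within LOCs, and Ldhb also differed in level between the classes (511 against 104 TPM). Acot7, a fatty acyl thioesterase, had 0.21 and 0.64.

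**Figure D5:**
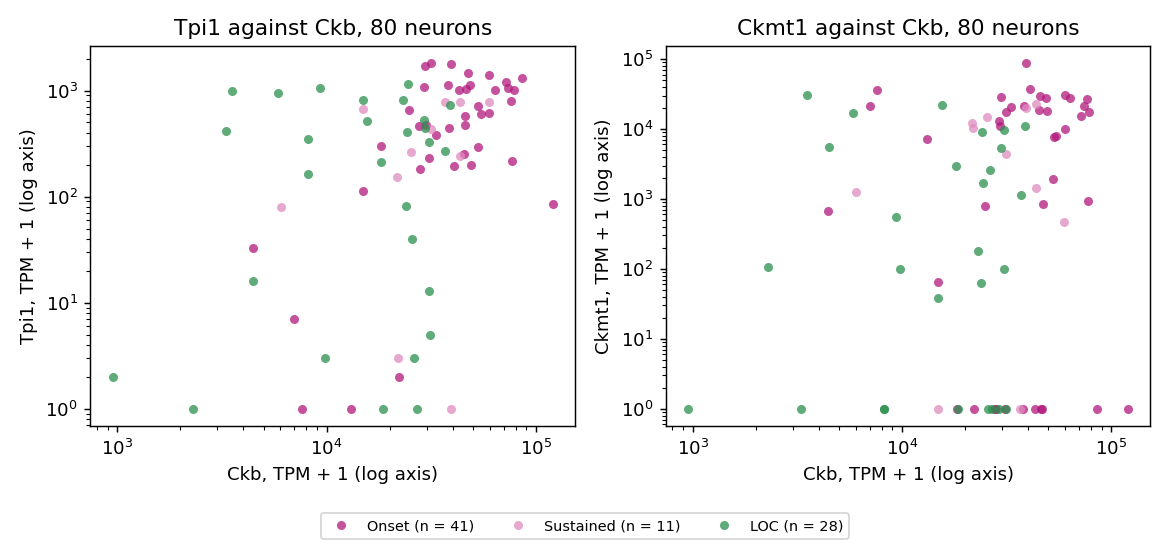
Tpi1 (left) and Ckmt1 (right) against Ckb in 80 neurons, as TPM + 1 on log axes, with 1 point a neuron coloured by class. Tpi1 rises with Ckb within pLSOs (r = 0.55), whereas Ckmt1 shows no such order (r = 0.02) and 22 neurons lie at 0.

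The 16 electrophysiological features of the labels gave no strong relation within a class. For Ckb the Pearson correlations ranged from -0.37 (action potential amplitude) to 0.20 (action potential threshold) within pLSOs and from -0.20 to 0.21 within LOCs. For Ckmt1 they ranged from -0.22 to 0.15 within pLSOs and from -0.44 (action potential latency) to 0.30 within LOCs, where Ckmt1 also moved with the number of detected genes. The 7 rarer members were scattered over neurons. Of 80 neurons, 26 held none of them, 28 held 1, 18 held 2 and 8 held 3 or more, and the number per neuron moved with the genes detected (r = 0.58 in pLSOs and 0.42 in LOCs).

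The wider phosphate network was described from fixed lists. The muscle creatine kinases Ckm and Ckmt2 were listed at 0 in all 80 neurons. Among further adenylate kinases, Ak6 was found in 16 neurons, Ak8 in 1 neuron, and Ak7 and Ak9 in none. Of 11 nucleoside phosphate kinases, 7 gave a ratio, and 1 was higher in pLSOs and 1 in LOCs by 2-fold or more, where 16.8% and 21.0% of all genes compared were. Such counts in the short lists given here lie too near these shares, or rest on too few genes, to set a list apart. The latter was Cmpk1, a UMP and CMP kinase, with 32.0 TPM in LOCs and 11.0 TPM in pLSOs. Nme1, a nucleoside diphosphate kinase, differed little, with 32.4 TPM in pLSOs against 30.7 TPM in LOCs.

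Ampd3, an AMP deaminase, was the only 1 of 3 deaminases with a ratio. It had 320 TPM in LOCs and 2.73 TPM in pLSOs, but it was found in 5 LOCs and 4 pLSOs, and the LOC mean without its highest neuron was 26.8 TPM. Among 6 mitochondrial carriers and pores, Vdac1 was 2.27-fold higher in LOCs (134 against 58.9 TPM) and none was 2-fold higher in pLSOs. Without the highest neuron of each class Vdac1 had 86.3 against 45.9 TPM, which is under 2-fold. Slc25a4, an ADP/ATP carrier, was detected in all 80 neurons and averaged 193 TPM in pLSOs against 150 TPM in LOCs. Of 7 subunits of the AMP-activated kinase, 2 gave a ratio and Prkaa2, a catalytic subunit, was 5.70-fold higher in pLSOs (11.4 against 2.00 TPM). The LOC value rested on 4 LOCs, and without the highest neuron of each class the means were 9.16 and 0.778 TPM.

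The sodium and potassium pump is a main consumer of ATP in neurons, and 2 of its 6 subunits were at least 2-fold higher in LOCs (21.0% of all genes compared) and none in pLSOs (16.8%). Atp1b2 was 12.6-fold higher in LOCs (14.8 against 1.17 TPM), and glial cells also express it. Atp1b1, a beta subunit, had 604 TPM in pLSOs against 430 TPM in LOCs. Of 4 genes of the methyl and ornithine steps beside creatine synthesis, 2 gave a ratio and 1, Mat2b, exceeded 2-fold in pLSOs at low values (3.54 against 1.54 TPM). The oligodendrocyte marker sum had a higher median in LOCs than in either pLSO type, as given above, while the astrocyte medians lay close together. The microglial median was 0 TPM in Onset neurons, 12 TPM in Sustained neurons and 6.5 TPM in LOCs. The part of glial RNA in the lists was not tested.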

How the data were processed

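The authors trimmed the reads (Trim Galore 0.4.2), aligned them to mm10 with STAR, marked duplicates (Picard 1.115), counted reads per gene with featureCounts and deposited 1 table of TPM rounded to whole numbers, treated here as a score because its scale does not follow the length of each gene. Libraries were mapped by title and grouped by firing pattern. From 86 neurons and 10 negative controls, 8 libraries were left out whose labels and published cluster means differed or whose published values did not match, a choice made with values seen. Members and lists were chosen with earlier results of these data known. Gene names and lengths came from Gencode vM21 (37570 of 38887 genes).

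The TPM worth of 1 read was estimated per library and row. In rows up to 6200 it came from the values, further down from all gene lengths in ascending order less 80 bases. These agreed within 10% for 99.07% of 4500 rows compared, the last ones up to row 6200. Earlier rows, among them those of Ckmt1 (row 57) and Ckb (row 225), were not compared. On a simulated table of 38887 genes the library constant was recovered within 1% in 96 of 96 libraries. The row length was recovered within 10% in 99.95% of the first 6200 rows. The simulated table was drawn from the fitted scale itself, so it checks the fitting and not whether the scale holds. Ak4 (row 6750) and Ak5 (row 11413) lie beyond these rows, where the length was taken from the sorted gene lengths. Reads per gene are estimates, so no count test was made. Detection meant 1 TPM or more. Ratios are of mean TPM, with a 2-fold limit and none where 3 or fewer neurons of a class (for negative controls, none) held the gene, and the background is all genes detected in at least 5% of neurons that gave a ratio. Shares carry exact Clopper-Pearson 95% intervals and 0 of n the limit of 3 over n, which cover counting error only. Context genes were named where 1 class averaged at least 10 TPM with a 2-fold ratio, at most 3 a list, and genes named beside them (Ak6, Ak7, Ak8, Ak9, Nme1, Slc25a4, Atp1b1 and Mat2b) were chosen after their values were seen. The software was SciPy 1.17.1, NumPy 2.4.6, matplotlib 3.10.9 and pandas 2.3.3 under Python 3.11.15. Some genes of the context lists are not reported here.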

Additional observations from a re-analysis of the deposited data

Results flagged for a closer look

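In the 8 negative controls the highest value of Ckmt1 (60847 TPM, next 766 TPM) and the highest value of Gamt (238 TPM, all others 0) stood far from the rest by Dixon's criterion. Chance meets it in about 1 of 20 groups, a rate that does not hold here, because most other controls were at 0 and almost any high value would then meet it. They stood for 7.95 and 15.0 estimated reads.

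Among the libraries left out of the comparisons, values above every negative control used were found for 5 members. For Gatm, Ak1 and Ak5 all negative controls used were at 0, so that any listed value would meet this. The left-out Onset neuron with replicate number 29 listed 246035 TPM of Ckb, above the highest value of the neurons used (120738 TPM), from 462 estimated reads, and 10 TPM of Ak1. The left-out LOC with replicate number 29 listed 24 TPM of Gatm, 71 TPM of Ak1 and 245 TPM of Ak3. The left-out LOC with replicate number 22 listed 2 TPM of Gatm and 1 TPM of Ak5.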

How the results depend on the processing

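The Ckb ratio between pLSOs and LOCs stayed between 1.88 (medians) and 2.46 (own gene length) under all 9 alternatives, of which estimated RPM (2.38) and neurons with at least 500000 estimated reads (2.33) were added after seeing the data. The number of members at least 2-fold higher in pLSOs was 3 and that in LOCs 3. By medians, also added after seeing the data, the numbers were 1 and 0, because the other members have medians of 0. In neurons below the median of glial markers 2 and 1 remained past the limit, with 10 LOCs left and 3 members that gave a ratio. By a difference of 1 in mean log2(TPM + 1) they were 2 and 1. The Ckmt1 ratio rose to 62.4 by medians. Without the highest neuron of each class, Gamt was 1.04-fold and Ak3 171-fold higher in LOCs. Gamt was 4.80-fold higher in LOCs than in Onset neurons alone, and Gatm 4.06-fold higher in pLSOs than in LOCs with at least 500000 estimated reads. The background at 2-fold fell to 11.1% (pLSO) and 8.69% (LOC) among genes found in at least 50% of neurons. Of 133 values recomputed, 119 stayed within 1.5-fold or the interval of the share, and no difference past 2-fold changed direction. The Gatm difference of mean log2(TPM + 1), 0.19, was -0.03 with all labelled neurons. Values were rounded to whole TPM in the table, which hides low values of Ak5 and Ak4 most. No paired analysis was possible because no label pairs neurons.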
